A study of Homo sapiens with 23 samples.

Results

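The genes described here are 60 of the 60605 genes in a table of nascent transcription, chosen because their level was higher after 24 h of TRPS1 degradation and near that of the control at every earlier time. Nascent transcription was measured by PRO-seq (precision run-on sequencing), in which engaged RNA polymerases in permeabilized cells are made to add a labelled nucleotide, so that reads count polymerases at work on a gene rather than mRNA already made. The cells were T47D, a luminal breast cancer line that expresses the estrogen receptor, as the single clone T47D dTAG-TRPS1 Clone 28, in which the expressed TRPS1 protein carries a degron tag and some genomic copies of the gene were knocked out. All 6 groups share this genotype. The treated groups received dTAG-13 and dTAGV-1 together, 50 nM each, for 0.5, 1, 2, 4 or 24 h, and the control group received the vehicle DMSO at 0.1% for 24 h. Each group has 4 libraries, replicates 1 to 4, except 24 h, which has replicates 2, 3 and 4. Because 1 clone was used and the replicates were rounds of treatment and harvest on 1 day, the spread given below is that between rounds. Fits that take the replicate number as a block leave out the differences shared by a round.

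TRPS1 is an atypical GATA-type zinc finger protein that binds GATA motifs and recruits corepressor complexes, and it is highly expressed in luminal breast cells. The dTAG ligands bridge the tagged protein to an E3 ubiquitin ligase, after which the proteasome destroys it. A time course of this kind asks which genes change soon after the protein is lost and which differ only after a day. The comparison here concerns the latter by their measured levels, and it holds no test of direct control.

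The members were chosen by a rule on measured values. Genes with a mean raw count of at least 100 over the 23 libraries were kept, which left 14148. Levels were expressed as CPM, each library's counts scaled to a common total with TMM factors, and the log2 ratio of each group mean to the DMSO mean was taken. A gene had to keep its ratios at 0.5, 1, 2 and 4 h between -0.15 and 0.15, which 9582 did, and 136 genes with LINC or KCN in their symbol were left out, so that 9446 were eligible. The score was the 24 h ratio minus the highest of the 4 earlier ratios, and the 60 highest scores are the members. Scores ran from 0.46 down to 0.18. The last 5 inside were TMEM53 at 0.1820, TP53I13 at 0.1818, PNRC1 at 0.1818, ENSG00000250101 at 0.1815 and TSPAN31 at 0.1811, and the first 5 outside were ENSG00000249141 at 0.1802, USP35 at 0.1799, AZIN2 at 0.1793, C1orf122 at 0.1785 and SPACA6-AS1 at 0.1775. No gap separates the groups on either side of this line, and 2490 eligible genes had a score above 0. Since every library entered the rule, the members' levels and fold changes are a description, and no count of calls among them is evidence for their pattern.

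Promoter sequence is shown for members whose 24 h difference was called by edgeR's quasi-likelihood test, described below, without or with the replicate number as a block, and whose window holds a motif that was looked for. The window also had to lie wholly before the start of the gene in GENCODE 44. The first 5 such members by score are given, of which PTGER4 and SHC2 were called with the block only, each as the 250 bases before the RefSeq start on GRCh38.p14, 5′ to 3′ on the gene's strand, with motif letters in capitals. DTX4, which encodes a Deltex-family E3 ubiquitin ligase of the Notch pathway, has its window at chr11:59171180-59171429, plus strand. PTGER4, the prostaglandin E2 receptor EP4, has it at chr5:40679665-40679914, plus strand. PYROXD2, a mitochondrial protein of the pyridine nucleotide-disulphide oxidoreductase type, has it at chr10:98415183-98415432, minus strand. POU2AF3, a partner protein of POU-domain factors, has it at chr11:111298296-111298545, plus strand. SHC2, an adaptor of receptor tyrosine kinases, has it at chr19:461034-461283, minus strand.
DTX4: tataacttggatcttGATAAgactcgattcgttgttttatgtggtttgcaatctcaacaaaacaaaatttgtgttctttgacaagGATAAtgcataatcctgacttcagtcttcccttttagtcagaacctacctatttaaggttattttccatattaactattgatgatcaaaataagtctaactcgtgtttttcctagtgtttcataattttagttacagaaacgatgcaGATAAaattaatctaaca
PTGER4: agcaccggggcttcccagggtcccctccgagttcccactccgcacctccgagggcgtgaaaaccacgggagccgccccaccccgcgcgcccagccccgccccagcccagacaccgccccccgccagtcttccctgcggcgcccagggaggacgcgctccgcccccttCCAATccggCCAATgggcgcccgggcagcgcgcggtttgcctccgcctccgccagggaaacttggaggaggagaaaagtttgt
PYROXD2: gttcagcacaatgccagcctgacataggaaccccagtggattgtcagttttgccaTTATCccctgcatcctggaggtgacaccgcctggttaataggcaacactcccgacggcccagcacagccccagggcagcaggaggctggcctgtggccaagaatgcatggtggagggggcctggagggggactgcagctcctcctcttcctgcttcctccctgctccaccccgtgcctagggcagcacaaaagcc
POU2AF3: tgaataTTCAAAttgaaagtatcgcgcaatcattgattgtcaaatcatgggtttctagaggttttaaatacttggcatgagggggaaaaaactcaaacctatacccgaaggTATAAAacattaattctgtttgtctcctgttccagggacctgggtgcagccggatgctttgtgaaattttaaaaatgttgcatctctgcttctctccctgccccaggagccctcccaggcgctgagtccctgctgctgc
SHC2: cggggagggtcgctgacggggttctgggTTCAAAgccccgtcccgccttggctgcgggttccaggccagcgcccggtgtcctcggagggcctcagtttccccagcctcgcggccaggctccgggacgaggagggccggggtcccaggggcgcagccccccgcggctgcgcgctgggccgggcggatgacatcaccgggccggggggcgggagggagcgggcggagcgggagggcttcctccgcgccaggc

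The capitals mark GATAA, the core that GATA-type zinc fingers bind, at 3 places in the DTX4 window and, on the other strand as TTATC, at 1 place in the PYROXD2 window. They mark CCAAT at 2 places in the PTGER4 window. In the POU2AF3 window they mark TTTGAA, on the other strand as TTCAAA, and TATAAA, and in the SHC2 window TTTGAA on the other strand. Windows were found by symbol for 41 of the 60 members, and for all 41 the letters equal the hg38 genome at those positions. Where a symbol has several starts in the RefSeq table, the first listed was used for every gene. GATAA was present on either strand in 8 of the 41 members' windows, 19.5%, against 12.3% of the 6965 eligible genes with a window and 21.0% of the windows of all 27305 symbols. CCAAT was in 31.7% of the members' windows against 36.8% of the eligible genes', and TGACC, part of the site of nuclear receptors, in 9 of 41 against 29.9%.

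The E-box CACGTG was in 9.76% of the members' windows and 9.22% of the eligible genes'. TTTGAA was in 7.32% against 8.7%, TATAAA in 4.88% against 5.1%, TGANTCA, the AP-1 site, in 2.44% against 3.33%, and TGACGTCA, the cyclic AMP response element, in 2.44% against 3.43%. The median GC content of the windows was 64.4% for the members, 64.8% for the eligible genes and 58.0% for all symbols. These shares are a description of the letters in a short window, over few members, and no test was made of them.

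Total counts ran from 4408544 to 17571616 per library, and the share of mitochondrial counts from 1.73% to 6.5%, the latter and the smallest total both in 4 h replicate 1. Luminal markers were high throughout, with ESR1 at 2531 CPM in DMSO and 2459 CPM at 24 h, while KRT5, KRT14 and KRT17 of basal cells had at most 6 counts in any library, LUM at most 4 and LYZ at most 2. Some other markers of these cell types had more. The highest library had 533 counts of TP63, 245 of MYLK and 180 of ACTA2 (basal and myoepithelial), 220 of COL1A1 (fibroblast) and 242 of CD68 (leukocyte). The sum of the 8 luminal markers was 4650 to 4868 CPM in DMSO and 4523 to 4625 CPM at 24 h. The sum of the 7 basal and myoepithelial markers was 46.9 to 51.7 CPM in DMSO and 53.1 to 57.9 CPM at 24 h. These markers did not move together. TP63 was at 19.8 CPM in DMSO and 28.5 CPM at 24 h, ACTA2 at 9.55 and 9.80 and OXTR at 3.35 and 3.91. MYLK was lower at 24 h, at 16.2 and 13.7 CPM, and so were KRT5 (0.18 and 0.06), KRT14 (0.13 and 0.11) and KRT17 (0.08 and 0.04). The sums of the 6 fibroblast markers, 15.7 to 17.4 and 15.96 to 18.2 CPM, and of the 5 leukocyte markers, 15.0 to 20.7 and 16.6 to 20.2 CPM, overlapped between DMSO and 24 h. The luminal and the basal sums did not overlap between DMSO and 24 h on this scale. Whether that holds with TMM factors was not computed. In the libraries from 0.5 to 4 h the luminal sum was 4004 to 4561 CPM and the basal sum 51.0 to 66.2 CPM. The part of these sums in the members' difference was not tested. TRPS1 itself was transcribed at 8373 to 10510 CPM in DMSO and 10180 to 12380 CPM at 24 h (log2 fold change 0.28 ± 0.09, adjusted p = 0.288 by edgeR), which does not check the labels, since the ligands act on the protein.

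Replicate 1 stood apart in these genes, and the 24 h group has no replicate 1. In the 5 groups that hold all 4 replicates, the replicate 1 level of a member, as the mean of its log2 ratio to the other replicates, had a median of -0.10 over the members, against -0.02 over the eligible genes. It was below 0 in 54 of the 60 members, 90%, and in 60.6% of the eligible genes, and replicate 1 was the lowest of the 4 libraries in at least 4 of the 5 groups for 13 members. The last count was not summarised over the eligible genes. The rule set a 24 h mean without replicate 1 against means that hold it, so a low replicate 1 raises the score. These values are therefore not independent of the choice of the members. Against DMSO replicates 2 to 4 alone, the median 24 h log2 ratio of the members was 0.21, against 0.23 with all 4 DMSO libraries. It was above 0 in 60 of 60 members and above 0.1 in 58, and it was smaller than the ratio to all 4 in 41. With replicate 1 left out of every group, the rule chose 32 of the 60 members again.

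Summed over the members, the level was 2149 to 2302 CPM in the 4 DMSO libraries, 2051 to 2301 CPM in the 16 libraries from 0.5 to 4 h, and 2615, 2596 and 2663 CPM in 24 h replicates 2, 3 and 4. The 24 h libraries lay above all 20 others in this sum, and replicate 1 had the lowest sum of each of the 5 groups that hold it. The median over the members of the log2 ratio to the DMSO mean was 0.24, 0.22 and 0.24 in the 3 24 h libraries, and -0.17 to 0.05 in the 20 others. The median group ratio was -0.06 after 0.5 h as after 1 h, it was -0.04 and -0.03 for 2 and 4 h, and 0.23 for 24 h. At each earlier time most members were slightly below the DMSO mean, 49 at 0.5 h and 43 at 4 h, within the bounds of the rule.

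**Figure D1:**
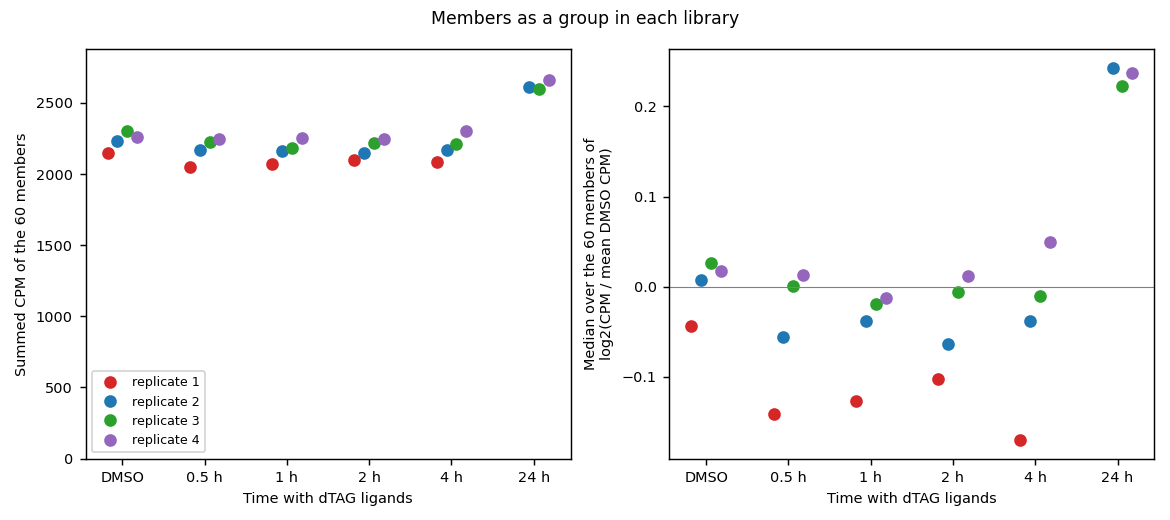
Summed CPM of the 60 members (left) and the median over members of log2(CPM over the mean DMSO CPM) (right) in each of 23 libraries, by group on the x axis and coloured by replicate. The 3 24 h libraries sit at 2596 to 2663 CPM, above the 20 others at 2051 to 2302 CPM, and replicate 1 is the lowest point of each group that has it.

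**Figure D2:**
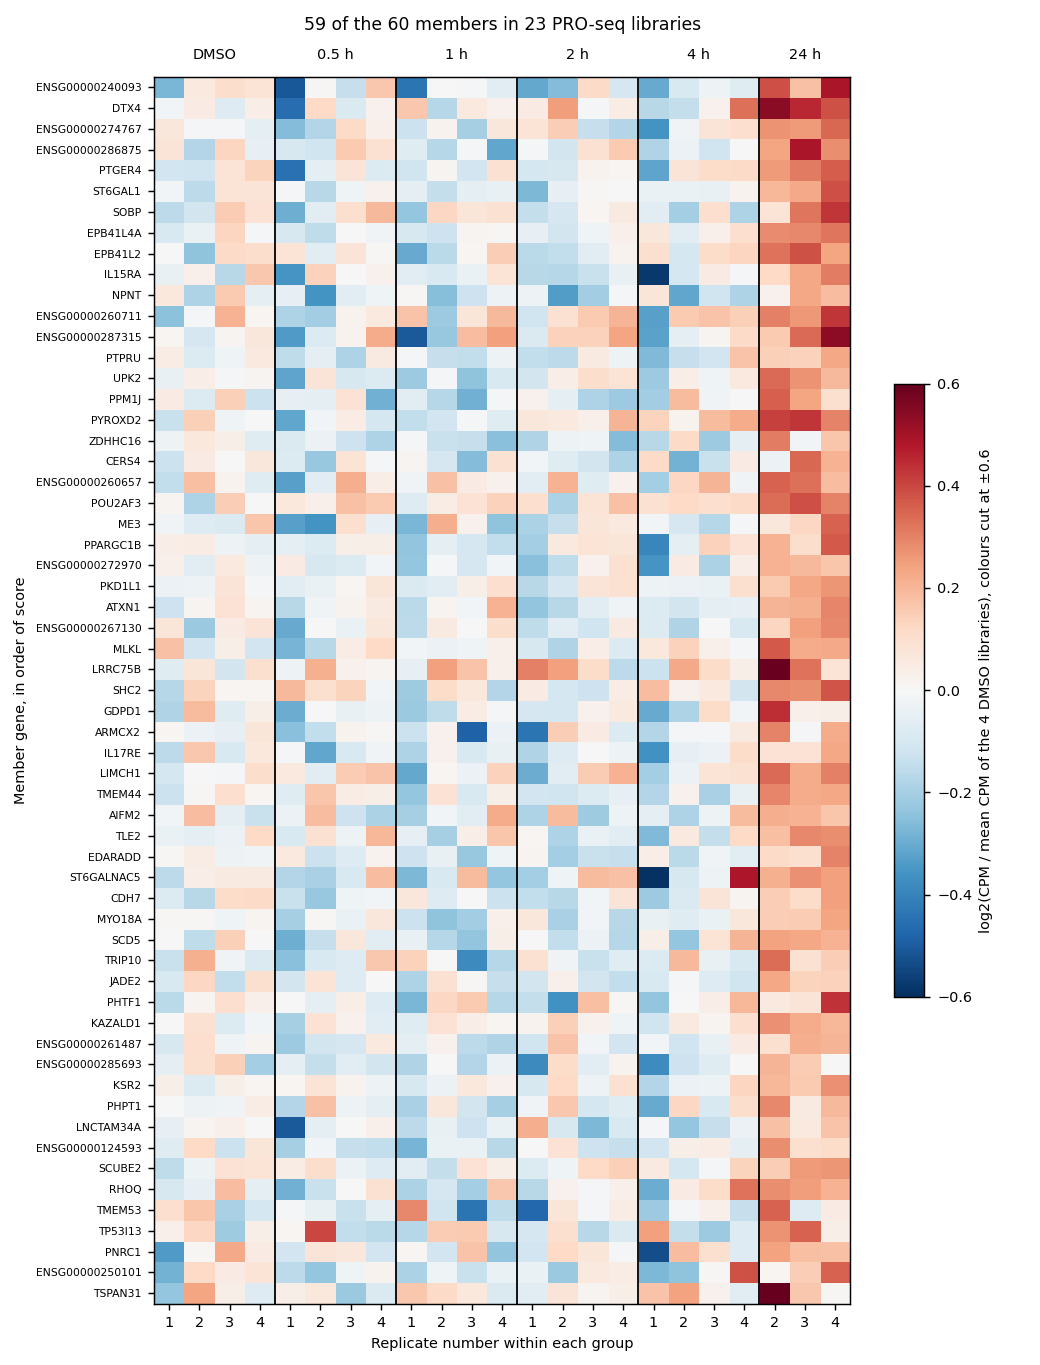
Each row is 1 of 59 members in order of score, each column a library, and the colour is log2(CPM over the mean CPM of the 4 DMSO libraries). The 24 h columns are mostly red, while the replicate 1 columns at 0.5, 1, 2 and 4 h hold many of the blue cells.

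The differences were small, and in bulk libraries more cells transcribing a gene and more polymerases per cell cannot be told apart. The 24 h log2 ratio ran from 0.12 in TMEM53 to 0.46 in DTX4, with 0.18 and 0.29 as the quartiles. Within same-numbered pairs, 24 h over DMSO, the median over the members was 0.24 for replicate 2, 0.17 for replicate 3 and 0.22 for replicate 4, and 49 members were higher at 24 h in 3 of 3 pairs and 11 in 2 of 3. Of the eligible genes 15.8% were higher in 3 of 3 pairs, against 81.7% of the members. The lowest single pair was -0.11, in replicate 2 of ENSG00000250101. In 37 members the 3 24 h libraries all lay above the 4 DMSO libraries, and over all 14148 genes with enough counts 850 did so, 6.01%. In 26 members they lay above all 20 other libraries, which held for 94 of the 14148, 0.664%. These counts, and that of the pairs, follow from the choice of the members and are given for their size only.

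**Figure D3:**
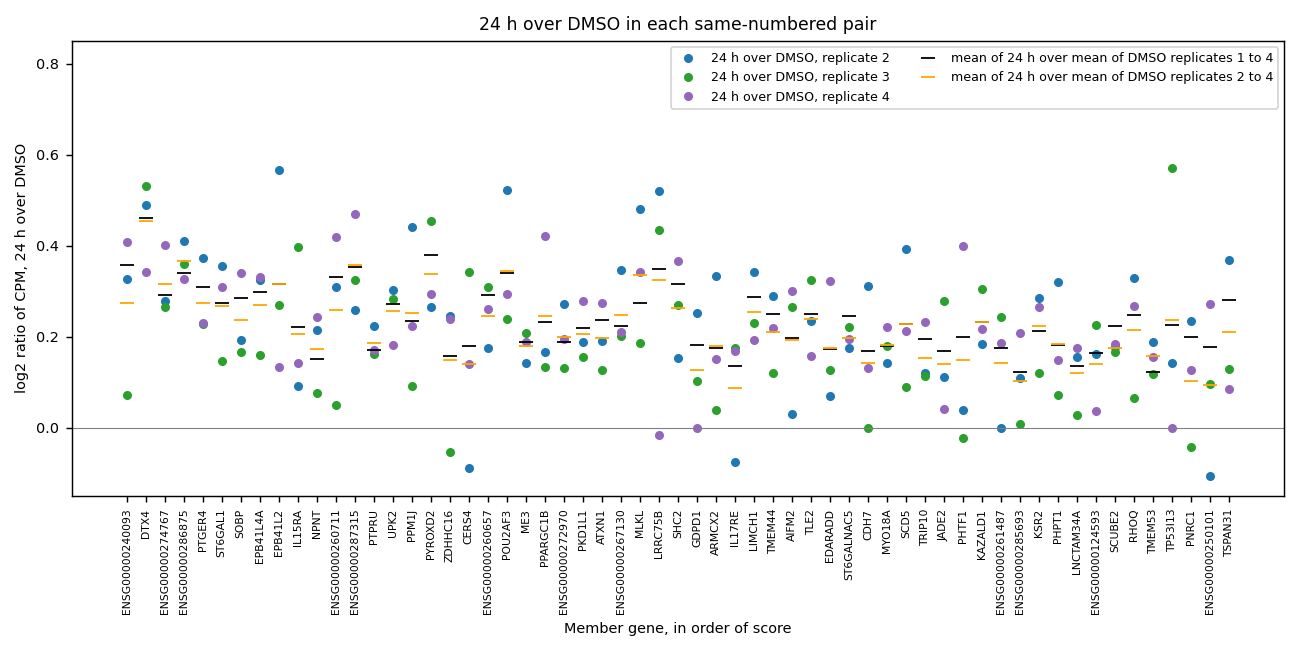
For each of 59 members in order of score, the log2 ratio of CPM at 24 h over DMSO in replicates 2, 3 and 4 (points), the ratio of group means with all 4 DMSO libraries (black bar) and with DMSO replicates 2 to 4 (orange bar). Bars lie above 0 for every member, while 11 members have 1 point at or below 0.

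In edgeR's quasi-likelihood test of 24 h against DMSO, with Benjamini-Hochberg adjustment over the 26057 genes tested and an adjusted p-value under 0.1 as the threshold, 147 genes were called higher, 0.564%, and 78 lower, 0.299%. With total counts in place of TMM factors these counts were 96 and 14, so the share higher went from 65.3% to 87.3%. Of the members 5 were called higher and 0 lower: DTX4, ST6GAL1, EPB41L4A, PYROXD2 and POU2AF3. With the replicate number as a block, 372 genes were called higher, 1.43%, and 319 lower, 1.22%, and 19 members were called higher, among them the same 5. Of the other 14, 13 were ENSG00000286875, PTGER4, EPB41L2, NPNT, UPK2, PKD1L1, ATXN1, LRRC75B, SHC2, TMEM44, EDARADD, KAZALD1 and KSR2. Without replicate 1 and with the block, 21 members were called, and without replicate 1 and without the block 7, whereas without replicate 4 the test called 0 members, with 24 at an unadjusted p under 0.05. Over all genes tested without replicate 4, 1342 were under that value. Nothing is read from these counts, since the same contrast chose the genes. For most members the difference from DMSO did not pass the threshold in either fit.

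At 24 h against 4 h, 45 genes were called higher, 0.173%, or 186 with the block, 0.714%. Of the members 6 were called, among them ENSG00000286875, ST6GAL1, EPB41L4A, ATXN1 and TMEM44, or 17 with the block, and 13 of those 17 were also called against DMSO with the block. Leaving out any 1 of the 24 h libraries brought the 6 to 0, with 36, 39 and 40 members then at an unadjusted p under 0.05. Over all genes tested, 1535, 1647 and 1747 were then under that value. At 0.5, 1, 2 or 4 h against DMSO 0 members were called by edgeR with or without the block or by DESeq2, with 2 members at an unadjusted p under 0.05 without the block and 7 with it, while 507 genes were called at 1 or more of these times, 1.95%, or 1691 with the block, 6.49%. The bounds on the earlier ratios select for this absence.

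Of the 12 members with the highest scores, 11 are given in every library, with values in replicate order. ENSG00000240093, a long noncoding RNA gene at chr7:182935-194180, minus strand, overlapping FAM20C on the opposite strand, lay at 12.1, 15.2, 15.7 and 15.4 CPM in DMSO and at 19.1, 16.5 and 20.5 CPM in 24 h replicates 2 to 4. ENSG00000240093 had 10.3, 14.7, 13.3 and 16.3 CPM after 0.5 h, 10.8, 14.6, 14.6 and 14.0 after 1 h, 11.8, 12.2, 15.8 and 13.6 after 2 h and 11.8, 13.7, 14.3 and 13.9 after 4 h of ligand. The 24 h libraries lay above all 20 others, and replicate 1 was the lowest library of all 5 groups. Its log2 fold change was 0.35 ± 0.14 (SE), and its log2 ratio of means was 0.36, or 0.28 against DMSO replicates 2 to 4. FAM20C, with 539.7 counts on average against 148, had a log2 fold change of -0.00 ± 0.06.

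DTX4, at chr11:59171430-59208588, plus strand, lay at 17.7, 18.5, 17.0 and 18.4 CPM in DMSO and at 26.01, 24.5 and 23.3 CPM at 24 h. DTX4 had 13.1, 19.4, 16.8 and 18.2 CPM after 0.5 h, 20.02, 15.9, 18.6 and 18.2 after 1 h, 18.5, 21.3, 17.8 and 18.4 after 2 h and 15.9, 16.2, 18.2 and 22.5 after 4 h of ligand. The groups did not overlap, and the lowest 24 h library was above the highest of the other 20, 4 h replicate 4. The log2 fold change was 0.46 ± 0.12, the largest among the members, and the ratio of means was 0.46 with all DMSO libraries and 0.45 with replicates 2 to 4. Its GATAA-bearing promoter window is printed above.

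ENSG00000274767, a long noncoding RNA gene at chr17:36183235-36196471, plus strand, lay at 15.2, 14.4, 14.4 and 13.9 CPM in DMSO and at 17.4, 17.3 and 18.3 CPM at 24 h. ENSG00000274767 had 12.1, 12.8, 15.6 and 14.7 CPM after 0.5 h, 13.2, 14.6, 12.6 and 15.1 after 1 h, 15.3, 15.99, 13.1 and 12.8 after 2 h and 11.3, 14.2, 15.3 and 15.5 after 4 h of ligand. The 24 h libraries were above all others, with a log2 fold change of 0.29 ± 0.11, and the gene was called in neither fit. ENSG00000286875, a long noncoding RNA gene at chr6:82353861-82363657, minus strand, lay at 17.1, 14.4, 17.7 and 15.7 CPM in DMSO and at 19.1, 22.7 and 19.6 CPM at 24 h. ENSG00000286875 had 15.2, 14.9, 18.0 and 17.2 CPM after 0.5 h, 15.4, 14.4, 16.1 and 13.0 after 1 h, 16.1, 15.0, 17.3 and 18.1 after 2 h and 14.3, 15.8, 14.9 and 16.2 after 4 h of ligand. It too had 24 h libraries above all others, with 24 h replicate 3 the highest, and a log2 fold change of 0.34 ± 0.09. It lies opposite TPBG, whose log2 fold change was 0.03 ± 0.10.

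PTGER4, the EP4 receptor that couples prostaglandin E2 to cyclic AMP, lies at chr5:40679915-40693735, plus strand. It lay at 32.2, 32.2, 37.0 and 38.2 CPM in DMSO and at 41.6, 43.3 and 44.8 CPM at 24 h. PTGER4 had 25.6, 33.6, 36.8 and 32.9 CPM after 0.5 h, 32.1, 35.3, 32.3 and 37.2 after 1 h, 32.5, 32.6, 35.4 and 35.2 after 2 h and 28.1, 36.8, 37.6 and 37.8 after 4 h of ligand. Replicate 1 was the lowest library of 4 of the 5 groups, and the ratio of means was 0.31, or 0.27 against DMSO replicates 2 to 4. All 24 h libraries were above all others. The gene overlaps TTC33 on the opposite strand, which had more counts, 867.3 on average, and a log2 fold change of 0.09 ± 0.06.

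ST6GAL1, the sialyltransferase that caps N-glycans with alpha-linked sialic acid, lies at chr3:186930325-187078553, plus strand. It lay at 39.7, 36.0, 42.4 and 42.3 CPM in DMSO and at 46.1, 46.95 and 52.5 CPM at 24 h. ST6GAL1 had 39.8, 35.7, 39.5 and 40.8 CPM after 0.5 h, 38.5, 36.3, 38.7 and 38.9 after 1 h, 33.3, 38.8, 40.3 and 40.1 after 2 h and 39.1, 39.1, 39.0 and 40.8 after 4 h of ligand. The earlier libraries kept within 33.3 to 40.8 CPM, and the 24 h libraries were above all 20 others, with replicate 4 the highest. The log2 fold change was 0.27 ± 0.07. ST6GAL1 and EPB41L4A were the 2 members that the rule chose again under all 19 other settings tried.

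SOBP, a zinc finger nuclear protein named for its binding to Sine oculis in the fly, lies at chr6:107490106-107661306, plus strand. It lay at 18.1, 18.7, 22.4 and 21.4 CPM in DMSO and at 21.3, 25.2 and 27.1 CPM at 24 h. SOBP had 16.5, 19.3, 21.6 and 23.04 CPM after 0.5 h, 17.2, 21.9, 21.2 and 21.5 after 1 h, 18.2, 18.8, 20.4 and 21.0 after 2 h and 19.2, 17.5, 21.6 and 17.7 after 4 h of ligand. Here the groups overlapped, since 24 h replicate 2 was below DMSO replicates 3 and 4, while each same-numbered pair was higher at 24 h. The log2 fold change was 0.28 ± 0.11.

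EPB41L4A, a FERM-domain protein of the band 4.1 family, lies at chr5:112142441-112419313, minus strand, and had 1251 counts per library on average. It lay at 114, 118, 132 and 120.4 CPM in DMSO and at 148, 148 and 151 CPM at 24 h. EPB41L4A had 114, 109, 121 and 119 CPM after 0.5 h, 114, 111, 123 and 122 after 1 h, 117, 112, 119 and 124 after 2 h and 127, 116, 124 and 130.0 after 4 h of ligand. The 24 h libraries lay above all 20 others, and the log2 fold change was 0.30 ± 0.06. EPB41L4A-AS1 on the opposite strand had a log2 fold change of -1.04 ± 0.59, adjusted p = 0.789 by edgeR, or -0.49 ± 0.22 with the block, adjusted p = 0.388. EPB41L2, of the same family, lies at chr6:130839347-131063322, minus strand. It lay at 24.9, 21.1, 27.0 and 26.8 CPM in DMSO and at 31.3, 32.5 and 29.4 CPM at 24 h. EPB41L2 had 26.4, 23.8, 26.3 and 25.1 CPM after 0.5 h, 20.2, 22.3, 25.1 and 27.6 after 1 h, 22.3, 22.5, 23.9 and 25.3 after 2 h and 26.7, 23.2, 26.9 and 27.3 after 4 h of ligand. Its 24 h libraries were above all others too, with a log2 fold change of 0.31 ± 0.09.

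IL15RA, the alpha chain of the interleukin-15 receptor, lies at chr10:5943639-5978187, minus strand. It lay at 14.7, 15.5, 13.6 and 17.0 CPM in DMSO and at 16.5, 17.8 and 18.8 CPM at 24 h. IL15RA had 11.9, 16.7, 15.2 and 15.5 CPM after 0.5 h, 14.5, 14.2, 14.8 and 16.1 after 1 h, 13.6, 13.5, 13.9 and 14.7 after 2 h and 10.2, 14.1, 15.7 and 15.1 after 4 h of ligand. DMSO replicate 4 was above 24 h replicate 2, and 4 h replicate 1 was the lowest library of all, with a log2 fold change at 24 h of 0.23 ± 0.11. NPNT, the matrix protein nephronectin that binds integrins, lies at chr4:105894775-106004027, plus strand. It lay at 150.2, 126, 160.4 and 138 CPM in DMSO and at 146, 169 and 163 CPM at 24 h. NPNT had 139, 112, 138 and 141 CPM after 0.5 h, 144, 120.5, 132 and 141 after 1 h, 141, 114, 124 and 142 after 2 h and 151, 116, 132 and 126 after 4 h of ligand. The groups overlapped, with replicate 2 the lowest library of all 6 groups, and the log2 fold change was 0.15 ± 0.10 without the block and 0.19 ± 0.05 with it.

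**Figure D4:**
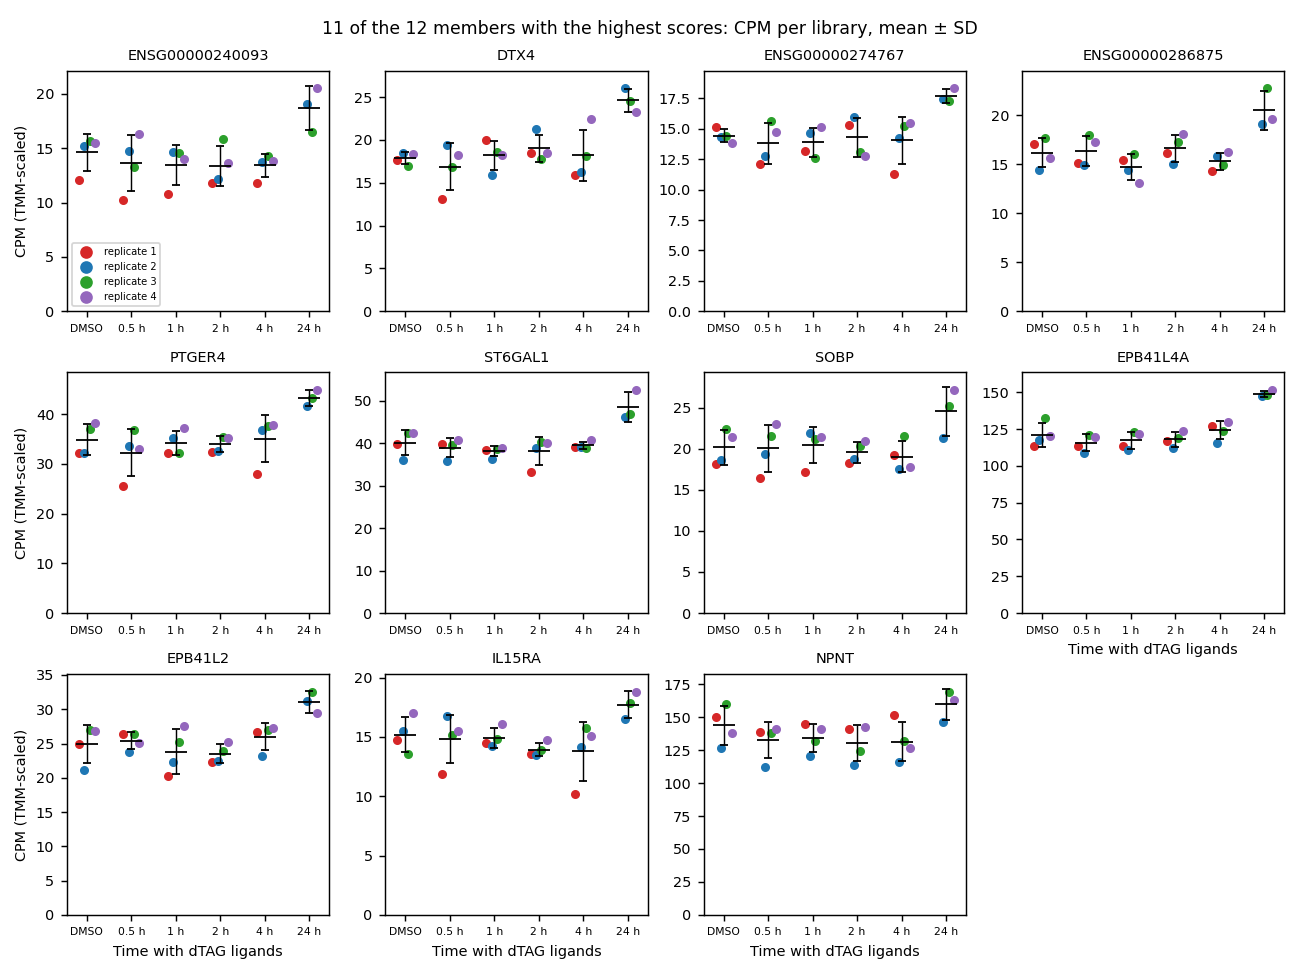
CPM (y axis, from 0) in each library for 11 of the 12 members with the highest scores, by group on the x axis, with the mean and SD of each group in black and points coloured by replicate. In DTX4 the 24 h points, at 23.3 CPM and above, clear the 20 others, while in SOBP, IL15RA and NPNT they overlap with DMSO.

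Members were grouped by the known role of their product, read after membership was known, and group means are given as mean ± SD with n = 4 in DMSO and n = 3 at 24 h. The calls counted in each role group stand beside 0.564% of all genes tested called higher without the block and 1.43% with it. Nothing is read from these counts or from their differences between roles, since the same contrast chose the members. Transcription regulators were 8 members, SOBP among them, with a median 24 h log2 ratio of 0.24. PPARGC1B, a nuclear receptor coactivator of the PGC-1 family that promotes mitochondrial genes, averaged 31.4 ± 1.04 CPM in DMSO and 36.9 ± 3.45 CPM at 24 h. POU2AF3, which acts with POU2F3 in tuft cells, averaged 32.0 ± 3.00 CPM in DMSO and 40.5 ± 1.27 CPM at 24 h. TLE2, a corepressor of the Groucho family, averaged 21.2 ± 1.23 CPM in DMSO and 25.2 ± 1.03 CPM at 24 h. In POU2AF3 the 24 h libraries, at 40.4, 41.8 and 39.3 CPM, were above all 20 others, and its neighbour COLCA1 on the opposite strand had a log2 fold change of 0.18 ± 0.09. ATXN1, the ataxin altered in a spinocerebellar ataxia, averaged 171 ± 10.3 CPM in DMSO and 201 ± 6.73 CPM at 24 h. JADE2, a PHD-finger partner of the HBO1 acetyltransferase, averaged 67.7 ± 6.29 CPM in DMSO and 76.1 ± 3.04 CPM at 24 h. PNRC1, a small proline-rich nuclear receptor coactivator, averaged 49.3 ± 7.71 CPM in DMSO and 56.6 ± 1.44 CPM at 24 h. The 24 h ratio of PNRC1 was 0.20 with all DMSO libraries and 0.10 with replicates 2 to 4, and the rule chose it again under 6 of 19 other settings, the fewest among the members. Of these 8, 1 was called against DMSO without the block and 3 with it.

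Receptors and signalling proteins were 11 members, with 24 h log2 ratios of 0.14 to 0.46 and a median of 0.22. IL17RE, the receptor chain for interleukin-17C, averaged 29.0 ± 2.92 CPM in DMSO and 31.9 ± 1.93 CPM at 24 h. PTPRU, a receptor-type tyrosine phosphatase, averaged 28.4 ± 1.28 CPM in DMSO and 32.0 ± 1.19 CPM at 24 h. EDARADD, the death-domain adaptor of the ectodysplasin receptor, averaged 55.2 ± 1.37 CPM in DMSO and 62.2 ± 4.92 CPM at 24 h. The ratio of IL17RE against DMSO replicates 2 to 4 was 0.09, the lowest of all members, while PTPRU and EDARADD were higher at 24 h in 3 of 3 pairs. SHC2, an SH2-domain adaptor, averaged 14.3 ± 1.23 CPM in DMSO and 17.8 ± 0.687 CPM at 24 h. KSR2, a scaffold of the RAF and MEK kinases, averaged 78.7 ± 3.01 CPM in DMSO and 91.1 ± 3.87 CPM at 24 h. TRIP10, a CDC42-binding F-BAR protein, averaged 13.4 ± 1.48 CPM in DMSO and 15.3 ± 1.36 CPM at 24 h. In SHC2 the 24 h libraries, at 17.4, 17.3 and 18.6 CPM, and in KSR2, at 90.4, 87.6 and 95.3 CPM, were above all 20 others. RHOQ, the small GTPase TC10, averaged 13.5 ± 1.26 CPM in DMSO and 16.1 ± 0.373 CPM at 24 h. SCUBE2, which helps release hedgehog ligands, averaged 41.5 ± 3.22 CPM in DMSO and 48.5 ± 2.18 CPM at 24 h. With DTX4, PTGER4 and IL15RA, 1 of the 11 was called against DMSO without the block and 5 with it.

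Adhesion, cytoskeleton and cell surface proteins were 9 members, with 24 h log2 ratios of 0.15 to 0.32 and a median of 0.23. UPK2, a uroplakin of the urothelial plaque, averaged 74.6 ± 1.78 CPM in DMSO and 89.96 ± 4.502 CPM at 24 h. PKD1L1, a polycystin of the left-right axis, averaged 223 ± 8.17 CPM in DMSO and 259.8 ± 9.95 CPM at 24 h. KAZALD1, a secreted protein of the insulin-like growth factor binding protein type, averaged 102 ± 5.09 CPM in DMSO and 119.7 ± 3.20 CPM at 24 h. In all 3 the 24 h libraries were above the 20 others, and PKD1L1, with 2310 counts per library, was the most highly counted member. LIMCH1, an activator of non-muscle myosin, averaged 15.5 ± 0.935 CPM in DMSO and 18.9 ± 0.804 CPM at 24 h. CDH7, a type II cadherin, averaged 29.1 ± 2.84 CPM in DMSO and 32.8 ± 1.63 CPM at 24 h. MYO18A, an unconventional myosin, averaged 57.3 ± 0.747 CPM in DMSO and 64.9 ± 2.27 CPM at 24 h. Of the 9, 1 was called against DMSO without the block and 6 with it, EPB41L2, EPB41L4A, NPNT, UPK2, PKD1L1 and KAZALD1. UPK2 overlaps BCL9L on the opposite strand, which had 1723 counts on average and a log2 fold change of -0.00 ± 0.05.

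Enzymes of lipids, glycans and metabolism were 11 members, with 24 h log2 ratios of 0.16 to 0.38 and a median of 0.20. PYROXD2, named above, averaged 32.6 ± 2.61 CPM in DMSO and 42.4 ± 2.06 CPM at 24 h. CERS4, a ceramide synthase, averaged 21.1 ± 1.26 CPM in DMSO and 23.9 ± 3.13 CPM at 24 h. SCD5, a stearoyl-CoA desaturase, averaged 11.8 ± 0.983 CPM in DMSO and 13.8 ± 0.161 CPM at 24 h. PYROXD2 lay at 29.7, 36.0, 32.1 and 32.7 CPM in DMSO and at 43.3, 43.9 and 40.1 CPM at 24 h, above all 20 others, and averaged 34.8 CPM at 2 h and 36.1 CPM at 4 h. ST6GALNAC5, a sialyltransferase of gangliosides, averaged 13.3 ± 0.906 CPM in DMSO and 15.7 ± 0.323 CPM at 24 h. ME3, a mitochondrial malic enzyme, averaged 12.2 ± 1.03 CPM in DMSO and 13.9 ± 1.51 CPM at 24 h. AIFM2, the ferroptosis suppressor FSP1, averaged 10.8 ± 1.06 CPM in DMSO and 12.4 ± 0.244 CPM at 24 h. ST6GALNAC5 averaged 13.2 ± 4.04 CPM at 4 h, and its 24 h and earlier libraries overlapped. GDPD1, a phosphodiesterase of lysophospholipids, averaged 21.0 ± 2.33 CPM in DMSO and 23.9 ± 4.09 CPM at 24 h. ZDHHC16, a palmitoyltransferase, averaged 22.8 ± 0.955 CPM in DMSO and 25.5 ± 2.85 CPM at 24 h. PPM1J, a serine and threonine phosphatase of the PP2C family, averaged 10.8 ± 0.936 CPM in DMSO and 12.7 ± 1.15 CPM at 24 h. GDPD1, ZDHHC16 and CERS4 were higher at 24 h in 2 of 3 pairs. PHPT1, a phosphohistidine phosphatase, averaged 19.4 ± 0.444 CPM in DMSO and 21.96 ± 1.801 CPM at 24 h. Of the 11, ST6GAL1 and PYROXD2 were called against DMSO, with and without the block.

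The 9 other coding genes had 24 h log2 ratios of 0.12 to 0.35. MLKL, the pseudokinase that carries out necroptosis, averaged 14.5 ± 1.43 CPM in DMSO and 17.5 ± 1.01 CPM at 24 h. TSPAN31, a tetraspanin that overlaps CDK4, averaged 18.3 ± 2.51 CPM in DMSO and 22.2 ± 4.94 CPM at 24 h. TP53I13, a p53-inducible gene, averaged 10.7 ± 1.04 CPM in DMSO and 12.5 ± 1.40 CPM at 24 h. MLKL lay at 16.3, 13.4, 14.8 and 13.3 CPM in DMSO and at 18.6, 16.9 and 16.9 CPM at 24 h, above all others, and in TSPAN31 the 24 h SD exceeded the difference between the means. TMEM44, a multi-pass membrane protein, averaged 62.7 ± 4.05 CPM in DMSO and 74.5 ± 2.07 CPM at 24 h. TMEM53, a nuclear envelope protein, averaged 11.5 ± 1.34 CPM in DMSO and 12.5 ± 1.97 CPM at 24 h. LRRC75B, a leucine-rich repeat protein, averaged 15.0 ± 1.077 CPM in DMSO and 19.1 ± 3.39 CPM at 24 h. TMEM44 had 24 h libraries above all 20 others, while TMEM44-AS1 on the opposite strand, with 1835 counts on average against 639, had a log2 fold change of 0.13 ± 0.07. ARMCX2, an armadillo-repeat protein of the X chromosome, averaged 17.1 ± 0.658 CPM in DMSO and 19.3 ± 2.09 CPM at 24 h. PHTF1 averaged 19.4 ± 1.46 CPM in DMSO and 22.3 ± 3.38 CPM at 24 h. ENSG00000124593, a coding gene with no symbol in the annotation, averaged 60.8 ± 4.93 CPM in DMSO and 68.1 ± 4.96 CPM at 24 h. LRRC75B and TMEM44 were called against DMSO with the block, and 0 of the 9 without it.

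Long noncoding RNA genes were 12 members, 20% of the 60, against 11% of the eligible genes, with 24 h log2 ratios of 0.12 to 0.36 and a median of 0.26. ENSG00000260711 averaged 24.8 ± 3.17 CPM in DMSO and 31.2 ± 1.96 CPM at 24 h. It overlaps CATSPERB on the same strand, which had 1366 counts against 267 and a log2 fold change of 0.24 ± 0.07 (adjusted p = 0.161 by edgeR, and 0.00662 with the block), so reads of the 2 genes may be shared. ENSG00000287315 averaged 13.4 ± 0.663 CPM in DMSO and 17.1 ± 2.27 CPM at 24 h. ENSG00000260657, opposite FEM1B, averaged 12.1 ± 1.19 CPM in DMSO and 14.8 ± 0.904 CPM at 24 h. LNCTAM34A, opposite the microRNA host gene MIR34AHG, averaged 25.2 ± 0.592 CPM in DMSO and 27.7 ± 1.25 CPM at 24 h. MIR34AHG had a log2 fold change of -0.03 ± 0.10. ENSG00000272970 averaged 22.5 ± 0.869 CPM in DMSO and 25.7 ± 0.380 CPM at 24 h. ENSG00000267130 averaged 11.04 ± 1.05 CPM in DMSO and 12.9 ± 0.742 CPM at 24 h. ENSG00000261487 averaged 33.4 ± 1.91 CPM in DMSO and 37.7 ± 1.71 CPM at 24 h. Both ENSG00000272970 and ENSG00000267130 had 24 h libraries above all 20 others, and ENSG00000261487 shares its strand with FBXL19. ENSG00000285693, overlapping STARD10 on the same strand, averaged 23.9 ± 2.56 CPM in DMSO and 26.1 ± 1.84 CPM at 24 h. ENSG00000250101 averaged 25.8 ± 3.12 CPM in DMSO and 29.2 ± 3.52 CPM at 24 h. With ENSG00000240093, ENSG00000274767 and ENSG00000286875, 0 of the 12 were called against DMSO without the block and 1 with it.

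The counts of many of these genes can hold reads of a neighbour. In 24 of the 60 members another gene with at least 100 counts on average overlaps the span, on the opposite strand in 18 and on the same strand in 8, and in 14 the antisense partner had more counts than the member. How strand entered the counting is not given in the sources used here, so a member and its antisense partner cannot be told apart with certainty. An antisense partner of that size was present in 35.4% of the eligible genes and in 30% of the members, and a same-strand partner was present in 19.7% against 13.3%. None of the partners was called at 24 h without the block and CATSPERB was called with it. Of the 36 members with no such partner, 10 were called with the block, beside 19 of all 60 members and 1.43% of all genes tested. Nothing is read from this count, since the same contrast chose the members, and the part of neighbours' reads was not tested.

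The members had fewer counts than most genes they were chosen from. Their median count per library was 223, against 489 for the eligible genes, and 66.7% were under 300 counts, against 28.5%. The spread between the DMSO libraries, as the coefficient of variation, had a median of 0.081 in the members and 0.061 in the eligible genes. Of the 40 members under 300 counts 1 was called at 24 h without the block and 6 with it, and of the 20 others 4 and 13, with median log2 ratios of 0.23 in both sets and median standard errors of 0.11 and 0.07. The part of low counts in the choice of the members was not tested.

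In gene structure the members were compared with the eligible genes. The median span was 34.6 kb against 39.8 kb, with quartiles of 11.2 and 112 kb against 17.0 and 89.8 kb. Coding genes were 80% against 86.1%, and 46.7% lay on the minus strand against 49.1%. Chromosomes 1, 6 and 11 held 9, 6 and 6 members, and chromosomes 8, 13, 20 and 21 held 0. The nearest pairs were MYO18A and TP53I13 on chromosome 17, 386 kb apart, PYROXD2 and ZDHHC16 on chromosome 10, 926 kb apart, and PPM1J and PHTF1 on chromosome 1, 982 kb apart. Per kilobase of gene, the DMSO level ran from 0.046 CPM in LIMCH1 to 16.6 CPM in KAZALD1, with PNRC1 at 11.2 and PHPT1 at 8.40.

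For the pathways around these members, 11 gene lists from general knowledge were described at 24 h against DMSO by edgeR, beside all 26057 genes tested, of which 13260 had a positive log2 fold change, with a median of 0.00. Of the 17 tested genes of the circadian clock list, 9 were positive with a median of 0.00, 0 were called without the block, with 1 at an unadjusted p under 0.05, and 1 was called with it. Both counts are of the same gene, which is itself a member and was thus chosen on this contrast. The Notch and Wnt list, to which DTX4 is a neighbour in function, had 11 of 22 genes positive and a median of 0.00. In it RNF43, a ubiquitin ligase that limits Wnt receptors, rose by 0.29 ± 0.04 (adjusted p = 0.00117) and had done so by 4 h, at 0.26 (adjusted p = 0.00142). HES1, a Notch target, was at 0.23 ± 0.10 (adjusted p = 0.573) and was called only with the block, at 0.21 ± 0.06 (adjusted p = 0.0802).

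The TGF-beta and BMP list had 14 of 21 positive, with a median of 0.03. Its ligand TGFB2 rose by 0.50 ± 0.07 at 24 h (adjusted p = 7.39e-04), and stood at 0.20 at 4 h (adjusted p = 0.484). The FOXO and growth arrest list had 11 of 19 positive, with a median of 0.03. CCNG2, an atypical cyclin of arrested cells, rose by 0.38 ± 0.07 (adjusted p = 0.0134), and PIK3IP1, an inhibitor of phosphoinositide kinase, by 0.69 ± 0.14 (adjusted p = 0.0183), and both had risen by 4 h, by 0.30 (adjusted p = 0.0440) and 0.57 (adjusted p = 0.0652). The lysosome list had 8 of 22 positive, with a median of -0.03, and CLN3, a lysosomal membrane protein, rose by 0.43 ± 0.07 (adjusted p = 0.00173), with 0.23 at 4 h (adjusted p = 0.157). Of the 22 interferon-stimulated genes 21 were positive without the block, with a median of 0.11 and with 3 at an unadjusted p under 0.05. The remaining gene, with 7 counts on average, was at -1.38 ± 0.87. With the block more genes of the list were negative, and the median was 0.08. OAS1, a sensor of double-stranded RNA, rose by 0.68 ± 0.17 (adjusted p = 0.0736), and was the 1 gene of that list called with or without the block.

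No gene of the remaining 5 lists was called by edgeR without the block. The p53 list had 16 of 20 positive with a median of 0.05, the NRF2 list 10 of 18 with 0.01, and the matrix and integrin list 13 of 22 with 0.03, and in these 3 lists 0 genes were called with the block either, with 4, 1 and 1 genes at an unadjusted p under 0.05 without it. In the luminal secretory list, with 4 of 11 positive and a median of -0.06, PIP (0.36 ± 0.07, adjusted p = 0.00798) and AGR2 (0.14 ± 0.04, adjusted p = 0.0458) were called with the block. In the neural adhesion list, with 12 of 22 positive and a median of 0.05, ROBO2 (0.20 ± 0.04, adjusted p = 0.00912) and NCAM2 (0.19 ± 0.05, adjusted p = 0.0475) were called higher with the block and SEMA3C (-0.23 ± 0.04, adjusted p = 0.00106) lower.

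**Figure D5:**
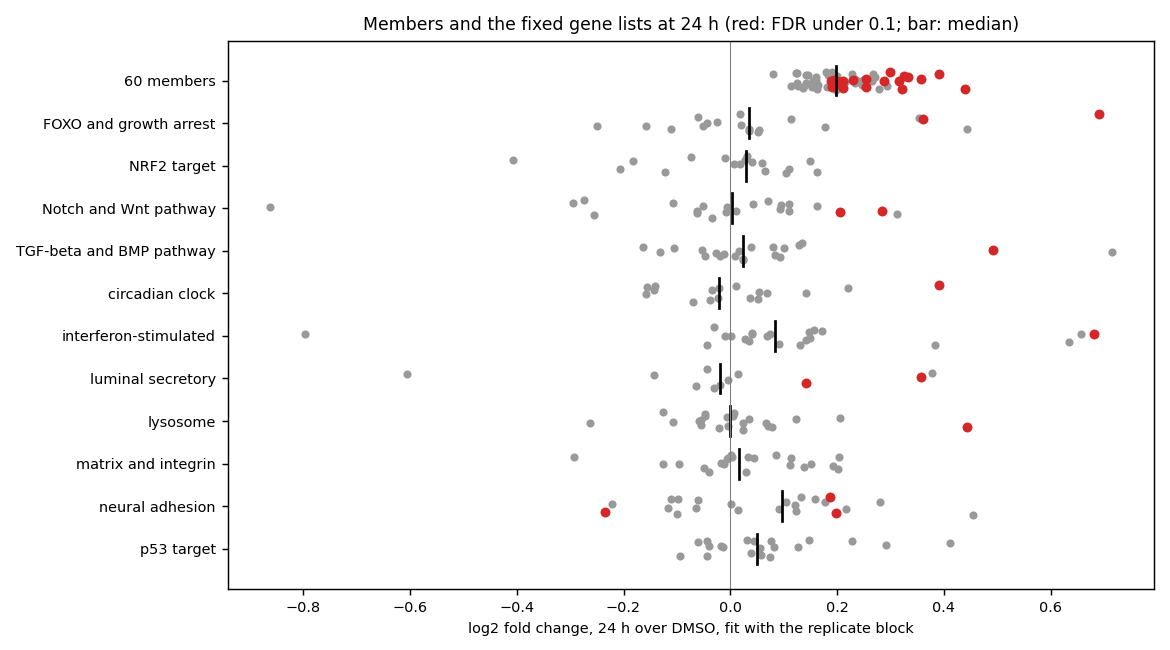
log2 fold change at 24 h over DMSO in the edgeR fit with the replicate block (x axis) for the 60 members and for each gene of 11 lists (rows). Red points have an adjusted p-value under 0.1 and black bars are medians. The members were selected on this contrast and lie above 0 by choice, while the lists centre near 0 with 1 to 3 called genes in 8 of them. The called gene of the circadian clock list is itself a member.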

How the data were processed

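PRO-seq libraries of 23 samples were grouped by their titles. The authors removed adapters with cutadapt 1.8.1, collapsed duplicates by a molecular identifier, discarded ribosomal reads, aligned the rest with Bowtie2 2.4.4 to hg38, sorted with SAMtools 1.9 and counted reads in genes with bedtools, tools and build being per the labels and the study's methods. The deposited values are these raw counts, 60605 genes by 23 libraries, without normalization. Annotation and strand use are not given in the sources used here. Depth was 4408544 to 17571616 counts, which leaves members of about 100 to 300 counts with standard errors near 0.11 on the log2 scale.

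The members and gene lists were chosen with earlier results of these data known. Fits used R 4.3.3 and edgeR 4.0.16 (filterByExpr with a minimum count of 10, TMM, glmQLFit and glmQLFTest on all 6 groups). Tests were 2-sided, with Benjamini-Hochberg adjustment and a threshold of 0.1. Each contrast was fitted with no block and again with the replicate number as a block, with DESeq2 1.42.0 as an alternative. Fold changes given with no mention of the block come from the edgeR fit that lacks it. Standard errors are the fold change over the square root of F. The tests and the rule were tried on simulated counts with no replicate differences and with larger rises than most members showed. That trial does not bear on rises of the members' size. Per the labels, time points of 1 replicate were collected together, so the numbers pair the libraries. The fit with no block leaves this pairing out, and its common dispersion was 0.0249, against 0.0049 with the block. Deviations from group means correlated at 0.45, 0.53 and 0.13 for DMSO with 24 h of replicates 2, 3 and 4. The mean correlation was 0.48 over all pairs of libraries with the same number, and -0.14 over pairs with different numbers. Replicates differed by more than counting noise (chi-square per degree of freedom of at least 1.55). GENCODE 44 symbols matched 60463 genes.

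All 60 members are in the counts and summed values: 11 of the 12 highest scores are given in every library and the rest by group means, 1 member and 1 partner gene are not reported here by name, and list genes are named where called. A 24 h replicate 1 was not analysed here. Alternatives were other size factors, no filter, DESeq2, the block, other limits in the rule and leaving out libraries. P-values without the block measure the spread between rounds of 1 clone on 1 day. Those with the block measure the spread left after the differences shared by a round are taken out.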

Additional observations from a re-analysis of the deposited data

Results flagged for a closer look

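Library values of the 12 highest-scoring members and of the summed level were compared within each group of 4, 65 groups in all, by Dixon's criterion for 1 library far from the others, and 8 passed it. Chance alone passes about 1 in 20 groups. ENSG00000240093 was at 12.07 CPM in DMSO replicate 1, against 15.2 to 15.7 CPM in the other 3 libraries, and at 10.78 CPM in 1 h replicate 1, against 14.0 to 14.6 CPM. PTGER4 was at 28.05 CPM in 4 h replicate 1, against 36.8 to 37.8 CPM. SOBP was at 17.16 CPM in 1 h replicate 1, against 21.2 to 21.9 CPM. ST6GAL1 was at 36.32 CPM in 1 h replicate 2, against 38.5 to 38.9 CPM, and at 40.77 CPM in 4 h replicate 4, against 39.0 to 39.1 CPM. EPB41L2 was at 23.16 CPM in 4 h replicate 2, against 26.7 to 27.3 CPM, and NPNT at 112.3 CPM in 0.5 h replicate 2, against 138 to 141 CPM. The 24 h group, with 3 libraries, was not compared in this way.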

How the results depend on the processing

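Of the 12 highest-scoring members' log2 fold changes under 17 alternatives, 0 of 204 changed sign, 166 kept their side of the threshold, 26 lost and 12 gained a call. EPB41L4A was called in 16 of 17 and DTX4 in 5. The counts of calls depended on the setting, and so did membership. Genes called higher and lower at 24 h against DMSO, then at 24 h against 4 h, with members called in each, were as follows. With total counts only there were 96 and 14 with 1 member, then 11 and 7 with 0. Without the low-count filter there were 100 and 26 with 2 members, then 21 and 29 with 1. With the DESeq2 Wald test there were 189 and 155 with 13 members, then 72 and 134 with 10. The share called higher against DMSO was thus 79.4% without the filter, 54.9% with DESeq2, 53.8% with the block and 42.2% with the block and no replicate 1, against 65.3%. With the replicate block, which pairs the libraries, there were 372 and 319 with 19 members, then 186 and 274 with 17. With the replicate block and no replicate 1 there were 463 and 633 with 21 members, then 270 and 313 with 24. Leaving out 1 replicate number or library gave 26 to 151 higher, 3 to 91 lower and 0 to 7 members against DMSO, and 0 to 51, 2 to 78 and 0 to 6 against 4 h. No member was called against 4 h without replicate 2, 3 or 4, where 35, 29 and 32 had an unadjusted p under 0.05, nor with total counts, where 48 had. Over all genes tested in these 4 settings, 1523, 1298, 1450 and 1878 were under that value.

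Under the rule, leaving out 1 replicate number or library chose 28 to 53 of the 60 members again, 28 without replicate 4, 30 without 24 h replicate 4, 31 without replicate 2 and 32 without replicate 1. A count minimum of 50 chose 38, one of 200 chose 35 (25 members were under it), bounds of 0.1 chose 33 and same-numbered ratios 39. DESeq2 size factors chose 59, total counts 40, bounds of 0.2 also 40, and TMM over all genes of the table, an alternative added after the data were seen, 53. A member was chosen again under 6 to 19 of the 19 settings, with a median of 13. The median member log2 ratio at 24 h was 0.22 to 0.27 when libraries were left out and 0.26 with total counts, a range that the choice of the members bears on. The causes were not tested. The median member had 223 counts per library.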
